A study of Mus musculus with 6 samples.

Results

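The 9 genes described here encode cell-surface heparan sulfate proteoglycans, 4 syndecans (*Sdc1*, *Sdc2*, *Sdc3* and *Sdc4*) and 5 glypicans (*Gpc1*, *Gpc2*, *Gpc3*, *Gpc4* and *Gpc6*). They were chosen by gene symbol from the 28987 genes of an RNA-seq table, and each symbol occurred once. The libraries were made from EGFP+ cardiac cells sorted from ventricles 4 weeks after transverse aortic constriction (TAC), a narrowing of the aorta that loads the heart with pressure. All mice carried a tamoxifen-activated Cre (MerCreMer) inserted in the *Postn* locus and a Cre-dependent EGFP reporter in the Rosa locus, and were given tamoxifen by injection and in chow. The labels put the injected dose at 100 mg/kg and the chow at 40 mg/kg, and the methods of the study state other doses. TAC was done at 8 to 10 weeks of age. The 3 control libraries came from mice with no further allele, and the 3 others from mice that were also Hsp47flox/flox, in which the same Cre removes *Hsp47*, the collagen chaperone gene. Because Cre was expressed from *Postn*, only cells that had activated this gene were labelled, sorted and deleted. *Postn* itself differed between the groups, at log2 5.87, 5.86 and 6.12 in controls and 10.22, 10.50 and 10.36 in the Hsp47-deleted libraries. Each of the 6 libraries is counted as 1 sample. The labels do not say whether a library held 1 mouse or several, so p-values measure the spread between these libraries.

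Syndecans cross the membrane once and carry heparan sulfate chains on their outer part, with a short cytoplasmic tail that binds PDZ proteins such as syntenin. Glypicans are held at the surface by a lipid anchor and have no cytoplasmic tail. Through their chains both families hold growth factors, chemokines and fibronectin near receptors. In fibroblasts, syndecan-4 takes part in focal adhesions and is known for its rise in the pressure-loaded heart, and glypicans are known as modulators of hedgehog, Wnt and BMP signals.

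Values are log2(value + 1), as the authors deposited them. The linear unit is not named, so the number of reads behind a value is unknown, no depth interval can be given, and levels of different genes are not ranked against each other. With the log2 undone, the libraries summed to between 690499 and 855404. Control replicates 3 and 4 were sequenced in 1 run (here the first run). Control replicate 2 and all Hsp47-deleted libraries were sequenced in another (the second run). Across the 15109 tested genes the median log2 difference between the groups was 0.35. The control of the second run was 0.11 above the first-run controls at the median gene, and the Hsp47-deleted libraries were 0.29 above that control. Over the tested genes the second-run control correlated with the Hsp47-deleted libraries at r from 0.872 to 0.936 and with the first-run controls at 0.761 and 0.827, so by its whole profile it was nearer to the former. The targeted gene, *Serpinh1* (*Hsp47*), was not lower than in all controls, with controls at log2 6.28, 6.10 and 7.60 (replicates 3, 4 and 2) and the libraries labelled Hsp47-deleted at 6.87, 6.67 and 6.66 (replicates 1, 2 and 3). Values below keep this order, and directions follow the labels. For *Serpinh1*, all Hsp47-deleted libraries thus lay below the second-run control and above both first-run controls. At the protein level, the study reported by Western blot that Hsp47 was efficiently lost from sorted EGFP+ cells. The linear values of 7 fibroblast markers summed to between 7297 and 10018 in controls and 10482 and 11847 in the other group. Most of each sum was *Dcn*, at 5090 to 7401 and 7755 to 8636. By log2 fold change 5 of the 7 were higher, and *Lum* and *Ddr2* were not. The 6 endothelial markers summed to between 75.6 and 232.1 in controls and 139.9 and 215.9 in the Hsp47-deleted group, and 6 cardiomyocyte markers to between 31.2 and 165.4 and between 114.5 and 196.6. The sums of the leukocyte markers did not overlap. They ran from 37.5 to 89.0 in controls and from 96.3 to 123.1 in the Hsp47-deleted group. Of these markers, 7 of 8 were in the table, 5 of 6 tested ones were higher and *Ptprc* was at 0 in every library. Each detected leukocyte marker by itself overlapped between the groups. *Cd68*, for example, was at 25.4, 63.6 and 19.2 in controls and 56.0, 62.3 and 51.9 in the Hsp47-deleted libraries. The sums of the fibroblast markers, made up mostly of *Dcn*, did not overlap either. For the fibroblast, endothelial, cardiomyocyte and leukocyte lists alike, the highest control was the library of the second run. The 6 mural markers summed to between 175.0 and 304.1 in controls, highest in control replicate 3, and 159.9 and 243.8 in the Hsp47-deleted group. Of the erythroid markers, 2 were in the table, summing to between 4.4 and 100.6 and between 31.5 and 53.0. The 4 mesothelial and 4 Schwann markers summed to at most 11.03 and 6.88 in any library. The part of any of these other cell types in the results below was not tested.

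In GRCm38 (GENCODE release M21), *Sdc4* lies on chromosome 2 from 164424247 to 164443887 on the minus strand. *Gpc3* and *Gpc4* are neighbours on the X chromosome, both on the minus strand, from 52272426 to 52613950 and from 52053021 to 52165252, with 107.2 kb between them. *Gpc6* spans 1051.2 kb of chromosome 14 beside *Gpc5*. At 95% identity over 80% of the length, 0 near-identical copies were found for any member. Exons of *Gpc1* overlapped *Ankmy1*, those of *Gpc2* overlapped *Gm43720*, and those of *Sdc3* overlapped *Gm12970* and *Gm26716*, so reads at these 3 members cannot be fully assigned. RefSeq start sites (GRCm38.p6) were at hand for 6 of the 9 members. The 250 bases before the start are shown for *Gpc3* and *Sdc4*, the members with the smallest p, and neither window held an annotated exon of its gene. The RefSeq start of *Gpc3* lay 24 bases before the nearest GENCODE start. That of *Sdc4* lay 2 bases before the start of 1 of its 2 GENCODE transcripts, and the window fell in the first intron of the other, which starts farther upstream. Capitals mark the GC box GGGCGG or its reverse complement CCGCCC. The *Gpc3* window is chrX:52613975-52614224 on the minus strand, and the *Sdc4* window is chr2:164443189-164443438 on the minus strand.

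Gpc3: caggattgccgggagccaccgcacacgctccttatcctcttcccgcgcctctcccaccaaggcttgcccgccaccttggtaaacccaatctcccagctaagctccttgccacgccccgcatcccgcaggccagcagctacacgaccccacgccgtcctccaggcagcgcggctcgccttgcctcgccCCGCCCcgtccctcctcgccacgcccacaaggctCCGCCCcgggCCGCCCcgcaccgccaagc

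Sdc4: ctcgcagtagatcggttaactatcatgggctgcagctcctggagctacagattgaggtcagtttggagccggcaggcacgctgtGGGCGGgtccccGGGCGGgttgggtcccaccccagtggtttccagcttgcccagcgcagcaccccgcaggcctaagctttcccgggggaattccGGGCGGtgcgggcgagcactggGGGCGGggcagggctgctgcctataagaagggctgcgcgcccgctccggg

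The *Gpc3* window held 3 GC boxes and the *Sdc4* window 4, and 32.7% of 32851 promoter windows of this length held at least 1. GC content was 71.6% and 68.0%, with a median of 52.4% over all windows. Neither window held TATAAA (12.4% of all windows) or the AP-1 motif TGANTCA (6.7%), searched on both strands. The windows before *Sdc1*, *Sdc3* and *Gpc2* held 3 GC boxes each and that before *Gpc4* held 1. The *Gpc4* window lay wholly within an annotated exon of its gene, and those of *Sdc1* and *Gpc2* held 73 and 68 exon bases.

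In the libraries labelled Hsp47-deleted, every deposited value of *Sdc4*, *Gpc3* and *Gpc4* lay above every control. The ratios of the geometric group means were 1.90, 2.32 and 1.90 on the value + 1 scale. Against the second-run control alone the log2 differences were 0.97, 0.87 and 0.37. *Sdc2* was level in the deposited values but lower relative to the library medians. *Sdc1*, *Gpc1*, *Sdc3* and *Gpc6* varied between sequencing runs or between libraries by as much as between groups. After Benjamini-Hochberg (BH) adjustment over all genes, 0 of the 8 tested members passed 0.05 in limma, while 0.245% of all tested genes did. At an unadjusted p under 0.05, 3 members were higher and 0 lower, and 14.5% of all tested genes were higher. All 8 had a log2 fold change above 0, as did 74.5% of tested genes. In 3 of the 8 the groups did not overlap, with the Hsp47-deleted group higher, as in 18.3% of tested genes. With each library centred on its median, *Sdc4* was no longer among these. *Gpc2* had a mean linear value of 0.955, just under the minimum of 1 set for testing. In bulk RNA, more cells of a type and more RNA per cell cannot be told apart.

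**Figure D1:**
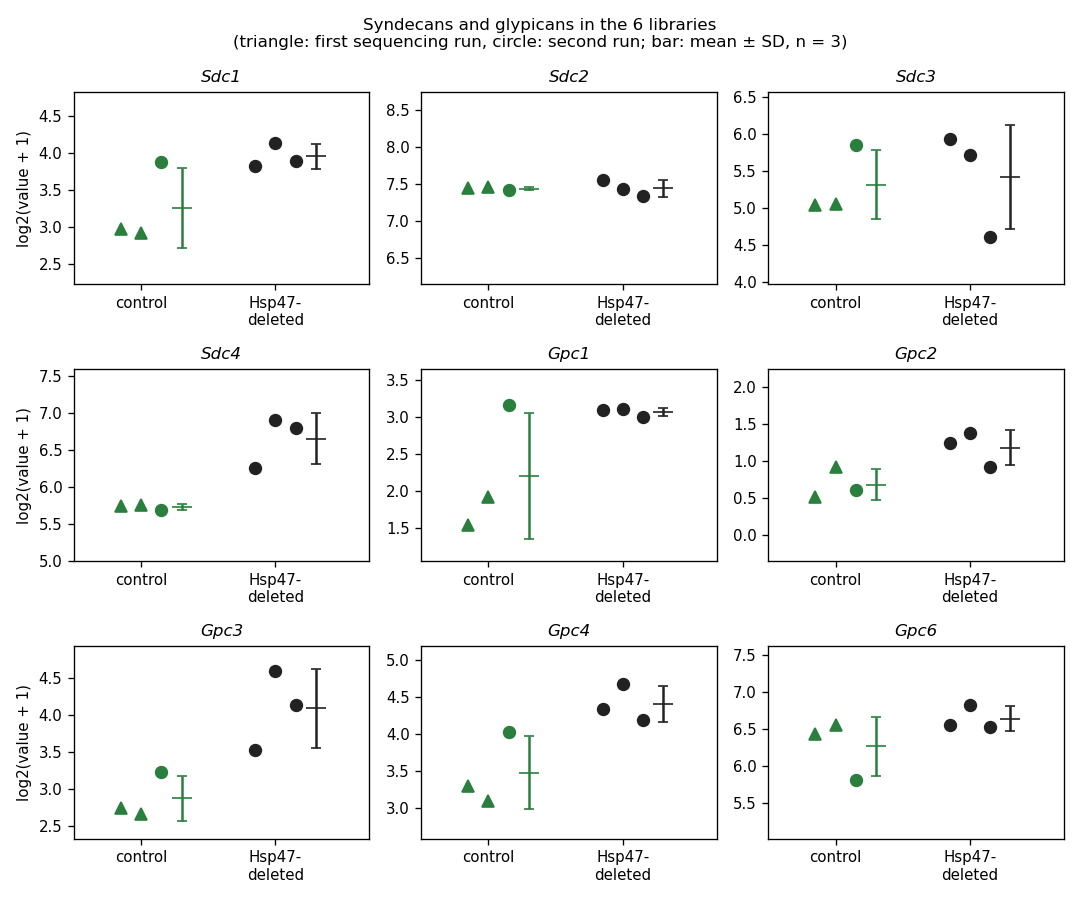
Log2(value + 1) of the 9 members in each library (y axes all span the same range of log2 units), for control and Hsp47-deleted libraries; triangles are the first sequencing run, circles the second, and bars the mean ± SD (n = 3). *Sdc4* is tight in the 3 controls and higher in the 3 Hsp47-deleted libraries, while the second-run control of *Sdc1* and *Gpc1* sits beside the Hsp47-deleted libraries.

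*Sdc4*, the syndecan of focal adhesions, had log2 values of 5.75, 5.75 and 5.68 in the controls. The Hsp47-deleted libraries read 6.25, 6.90 and 6.80. In the deposited values the controls of both runs were thus alike, and each Hsp47-deleted library was above them, replicate 1 by the least. The means were 5.73 ± 0.037 and 6.65 ± 0.35 (SD, n = 3 each), a log2 fold change of 0.92 (95% interval from 0.25 to 1.60, limma, unadjusted p = 0.0136, BH-adjusted p = 0.282). On the linear scale the controls were between 50.4 and 52.7 and the Hsp47-deleted libraries between 75.2 and 118.4. Against the second-run control alone the difference was 0.97. With sequencing run in the limma model the unadjusted p was 0.0335 and the BH-adjusted p 0.692. Centring each library on its median brought the log2 fold change to 0.51 (limma, unadjusted p = 0.154). The controls were then less alike, and Hsp47-deleted replicate 1 lay below control replicate 3, so the groups overlapped. The library medians were 2.75, 3.00 and 3.13 in controls and 3.40, 3.43 and 3.28 in the Hsp47-deleted libraries. The study singled out *Sdc4* from this experiment, so its direction here is not independent evidence. By RT-PCR the study also reported higher *Sdc4* in sorted Hsp47-deleted cells.

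*Sdc2*, the syndecan common in mesenchymal cells, varied least of the members between libraries. Its log2 values were 7.44, 7.47 and 7.42 for controls, and 7.56, 7.43 and 7.34 for the other group. As deposited, all 6 libraries fell within 0.22 log2 units, and the groups overlapped. The log2 fold change was 0.0010, with a 95% interval from -0.60 to 0.61 (limma, BH-adjusted p = 0.999). Relative to the library medians it was -0.41 (limma, unadjusted p = 0.192), and every Hsp47-deleted library was then below every control.

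*Sdc1*, a syndecan best known from epithelia and plasma cells that is also made in the injured heart, had log2 values of 2.98 and 2.92 in the first-run controls and 3.89 in the second-run control. In the Hsp47-deleted libraries it was at 3.82, 4.14 and 3.90. The second-run control lay among the Hsp47-deleted libraries, and the first-run controls lay below. The pooled log2 fold change of 0.69 (95% interval from -0.13 to 1.52, limma, BH-adjusted p = 0.381) became 0.068 against the second-run control.

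*Sdc3*, a syndecan first described in the nervous system, did not separate the groups. Its first-run controls were at 5.04 and 5.06 and its second-run control at 5.86. Hsp47-deleted replicates 1 and 2 were near the latter, at 5.93 and 5.72, and replicate 3 was the lowest of all libraries at 4.62. The log2 fold change was 0.10 (95% interval from -0.90 to 1.10, limma, BH-adjusted p = 0.923) and was -0.43 against the second-run control. Centring on the library medians also turned it negative, to -0.31.

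Among the glypicans, *Gpc3*, which binds hedgehog and restrains body growth, had the largest log2 fold change and the smallest p of the members. Its log2 values were 2.75, 2.67 and 3.23 for controls, and 3.54, 4.60 and 4.14 for the Hsp47-deleted libraries. The groups did not overlap, but the second-run control and Hsp47-deleted replicate 1 were the nearest pair. The log2 fold change was 1.21 (95% interval from 0.36 to 2.07, limma, unadjusted p = 0.0116, BH-adjusted p = 0.282), and 0.87 against the second-run control. With run in the limma model the unadjusted p was 0.108. Centring left 0.80 (limma, unadjusted p = 0.0559).

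*Gpc4*, the X-linked neighbour of *Gpc3* and a modulator of Wnt and FGF signals, read 3.30, 3.10 and 4.03 in the controls. The Hsp47-deleted libraries were at 4.34, 4.68 and 4.20. They were above all controls, with the second-run control 0.83 above the mean of the first-run ones. The log2 fold change was 0.93 (95% interval from 0.12 to 1.73, limma, unadjusted p = 0.0292, BH-adjusted p = 0.306), and 0.37 against the second-run control (unadjusted p = 0.348 with run in the limma model).

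*Gpc1*, a glypican that binds FGF2 and VEGF, had the largest difference between runs among the controls. Its log2 values were 1.53 and 1.91 in the first-run controls, 3.16 in the second-run control, and 3.10, 3.10 and 3.00 in the Hsp47-deleted libraries. The second-run control was the highest of the 6, 1.44 above the first-run mean. The pooled log2 fold change of 0.86 (95% interval from -0.18 to 1.91, limma, BH-adjusted p = 0.388) was -0.095 against the second-run control. *Gpc1* was thus the 1 tested member whose 3 Hsp47-deleted libraries all lay below that control, as 11.7% of tested genes did.

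*Gpc6*, whose product is close in sequence to that of *Gpc4*, had the opposite run difference. First-run controls were at 6.44 and 6.56, the second-run control at 5.82, and the Hsp47-deleted libraries at 6.57, 6.83 and 6.53. The groups overlapped at Hsp47-deleted replicate 3. The log2 fold change was 0.38 (95% interval from -0.34 to 1.09, limma, BH-adjusted p = 0.561). With run in the limma model it was 0.83 (unadjusted p = 0.0344, BH-adjusted p = 0.699). With centring it was -0.040.

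*Gpc2*, a glypican of the developing nervous system, was low throughout. Linear values were 0.43, 0.89 and 0.53 for controls and 1.38, 1.60 and 0.89 for the Hsp47-deleted libraries, overlapping at the last of these. When genes under the minimum were kept, its log2 fold change was 0.50 (standard error 0.19, limma, unadjusted p = 0.0495, BH-adjusted p = 0.52).

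**Figure D2:**
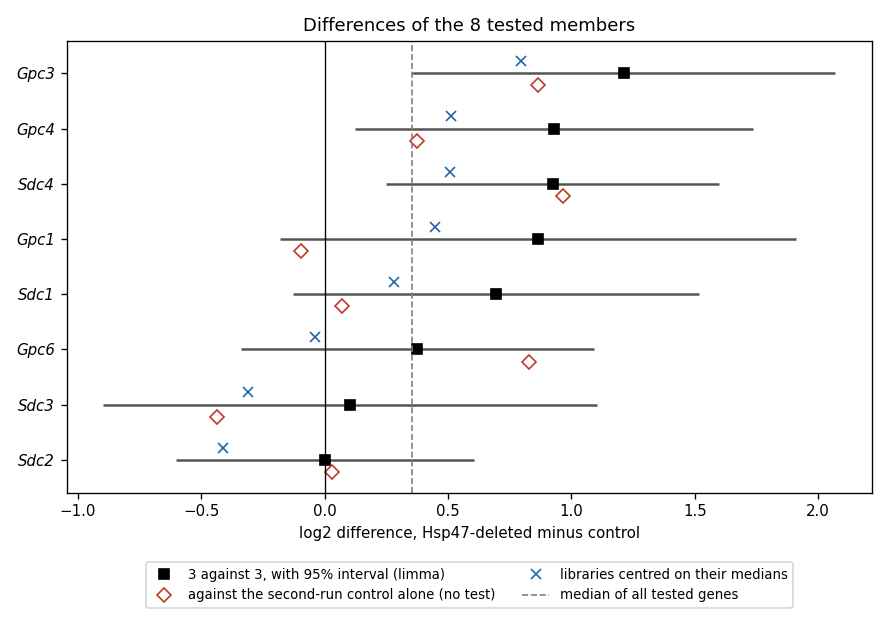
Log2 difference of Hsp47-deleted minus control libraries (x axis) for the 8 tested members (y axis): squares with lines are the limma estimates with 95% intervals, diamonds the difference from the second-run control alone, crosses the limma estimates after centring libraries on their medians, and the dashed line the median of all tested genes (0.35). Intervals of *Gpc3*, *Gpc4* and *Sdc4* lie above 0, and the diamond of *Sdc4* (0.97) sits beside its square (0.92) while that of *Gpc1* (-0.095) does not.

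The members therefore differed in how the 2 runs compared among controls. The second-run control was above the first-run mean by 0.94 at *Sdc1*, 0.81 at *Sdc3*, 1.44 at *Gpc1*, 0.83 at *Gpc4* and 0.52 at *Gpc3*. At *Sdc2*, *Sdc4* and *Gpc2* the same difference was -0.040, -0.065 and -0.10, and at *Gpc6* -0.68. Of the tested members, *Sdc4*, *Gpc3*, *Gpc4* and *Gpc6* had all 3 Hsp47-deleted libraries above the second-run control. This is 4 of 8, near the 46.7% of all tested genes. Without control replicate 2, *Sdc1*, *Gpc1*, *Gpc3* and *Gpc4* were called higher (limma, BH-adjusted p from 0.0263 to 0.0493), as were 16.4% of tested genes. In that comparison run and label cannot be told apart. *Sdc4* was then at a BH-adjusted limma p of 0.0712. With the libraries centred on their medians, 0 of the 8 members had an unadjusted limma p under 0.05, as against 8.21% of tested genes (714 higher and 526 lower). By that scaling 5 of the 8 were higher, with *Sdc2*, *Sdc3* and *Gpc6* lower.

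**Figure D3:**
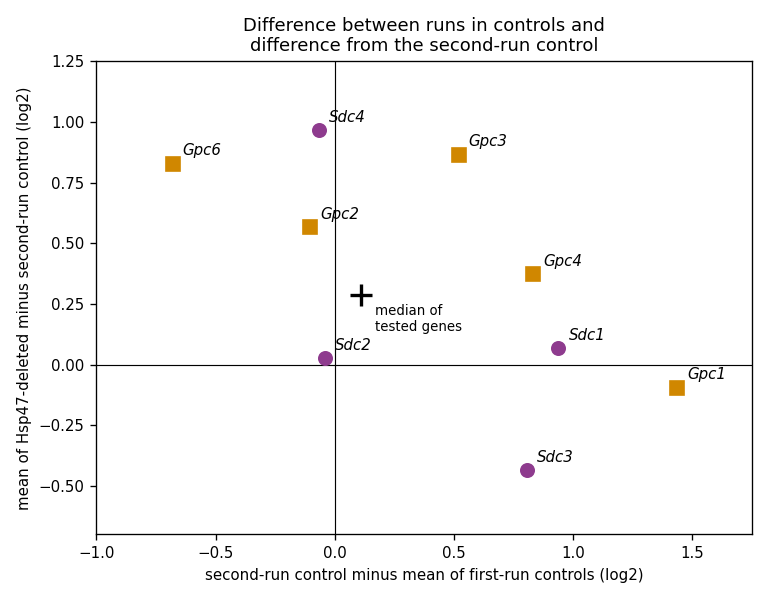
For each of the 9 members, the log2 value of the second-run control minus the mean of the 2 first-run controls (x axis) against the mean of the 3 Hsp47-deleted libraries minus the second-run control (y axis); circles are syndecans, squares glypicans, and the plus sign the median of the 15109 tested genes (0.11 and 0.29). *Gpc1*, *Sdc1*, *Sdc3* and *Gpc4* lie to the right, and *Sdc4* lies high near the vertical zero line.

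By family, the 4 syndecans had a median log2 fold change of 0.40 and the 4 tested glypicans 0.90, beside 0.35 over all tested genes. Against the second-run control these medians were 0.048 and 0.60, beside 0.29. No test was made of the difference between the families. Among all tested genes, the profiles most like that of *Gpc3* over the 6 libraries were those of *Nek3*, *Orai2* and *Tef*. In controls *Nek3* read log2 0.67, 0.67 and 1.14 and *Orai2* 1.06, 1.22 and 1.62, low values at which the added 1 narrows log2 differences. The root mean square differences of *Nek3*, *Orai2* and *Tef* from *Gpc3* were 0.13, 0.15 and 0.16 log2 units after each gene was set to its own mean. *Sdc4*, at 0.28, was the nearest member and ranked 119, ahead of *Gpc4* at 0.31 and rank 208.

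Genes that build the chains, edit them, release the core proteins or bind them were read from the same fit. Of 74 such genes, all in the table, 57 were tested. At an unadjusted limma p under 0.05, 11 were higher and 0 lower, beside 14.5% of all tested genes higher, and after BH adjustment 0 passed. In 14 the groups did not overlap, with the Hsp47-deleted group higher, beside 18.3% of all tested genes. The counts by list below are small and are to be read against these shares. Their median log2 fold change was 0.41, which is 0.052 above that of all tested genes.

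For chain synthesis, 20 of 27 genes were tested, with a median log2 fold change of 0.37, and 2 were higher at an unadjusted p under 0.05 and 0 lower, a smaller share than the 14.5% of all tested genes. These were *B4galt7*, which adds the first galactose of the linker (0.83 in log2 fold change, limma, adjusted p = 0.307), and *Xylt2*, a xylosyltransferase that starts the linker (1.09, limma, BH-adjusted p = 0.309). Against the second-run control they were at 0.72 and 0.30, beside 0.29 at the median tested gene. *B3gat3*, which completes the linker, had the next smallest p at 1.24 (limma, BH-adjusted p = 0.334), with 0.058 against the second-run control. The chain polymerases *Ext1* and *Ext2* were at 0.22 and 0.39, and at 0.52 and -0.36 against the second-run control. Both tested editing genes, the 6-O-endosulfatases *Sulf2* (0.91) and *Sulf1* (0.40), missed an unadjusted p of 0.05. Against the second-run control *Sulf2* was at -0.082 and *Sulf1* at 0.29. *Sulf1* did not overlap between the groups, at 5.92 ± 0.10 and 6.31 ± 0.068 (SD, n = 3 each), as 18.3% of all tested genes did not in this direction. Centring on the library medians brought its log2 fold change to -0.020.

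Of 6 other carriers of heparan sulfate, 5 were tested. *Col18a1*, encoding the basement membrane collagen that yields endostatin, and *Hspg2*, encoding perlecan, were higher at an unadjusted p under 0.05. Their log2 fold changes were 1.03 and 1.00 (limma, adjusted p of 0.306 and 0.324), and 0.42 and 0.18 against the second-run control. *Agrn*, encoding agrin, was at 0.58 and at -0.39 against that control. *Gpc5*, the neighbour of *Gpc6*, was listed at 0 in 5 libraries, with 0.047 as its highest linear value.

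Among 7 tested genes of core protein release, *Mmp2*, a gelatinase, and *Furin*, the convertase that processes glypican-3, were higher at an unadjusted p under 0.05 (14.5% of all tested genes), and 0 were lower. *Mmp2* was at 8.35 ± 0.12 in controls and 9.42 ± 0.18 in the Hsp47-deleted group (SD, n = 3 each). Its log2 fold change was 1.07 (limma, BH-adjusted p = 0.252), and 0.97 against the second-run control. *Furin* was at 4.00 ± 0.12 and 4.96 ± 0.22 (SD, n = 3 each), 0.96 apart in log2 (limma, adjusted p = 0.276), and 1.02 against that control. Like *Sdc4* in the deposited values, both had tight controls and no overlap, as 18.3% of all tested genes had no overlap in this direction. *Mmp3*, which can shed syndecans, was at 1.23 (limma, BH-adjusted p = 0.345). The study singled out *Furin* and *Mmp3* from this experiment too, so their directions are not independent evidence. It also reported both as higher by RT-PCR in sorted Hsp47-deleted cells. The sheddase genes *Adam10* and *Adam17* were at 0.24 and 0.075, and at -0.072 and 0.25 against the second-run control.

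All 7 partners of the syndecan tail and signalling were tested, and 1 was higher at an unadjusted p under 0.05, close to the 14.5% of all tested genes. This was *Tiam1*, a Rac exchange factor (log2 fold change 0.82, limma, BH-adjusted p = 0.313). *Ezr*, encoding the membrane linker ezrin, was at 0.54 and *Gipc1*, a PDZ protein, at 1.08, both short of that p, and at 0.41 and -0.32 against the second-run control. *Sdcbp*, encoding syntenin, was at -0.16, and *Prkca*, the kinase partner of syndecan-4, at 0.065. Against the second-run control these were at 0.32 and 1.28.

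Of 20 ligands, 16 were tested, and 4 were higher and 0 lower at an unadjusted p under 0.05, beside 14.5% of all tested genes higher. These were the heparin-binding growth factors *Ptn* (log2 fold change 1.16), *Hbegf* (1.37) and *Mdk* (1.60), and fibronectin, *Fn1* (0.86), with BH-adjusted limma p from 0.252 to 0.294. *Ptn*, *Hbegf* and *Fn1* did not overlap between the groups (18.3% of all tested genes) and were 1.54, 1.87 and 0.99 above the second-run control. *Mdk* overlapped and was 0.25 above it. For *Fn1* the direction was opposite to the RT-PCR of the study, which reported lower fibronectin mRNA in sorted Hsp47-deleted cells. *Fgf2*, a ligand that needs heparan sulfate to signal, was at -0.96 (limma, BH-adjusted p = 0.348) and -0.21 against the second-run control.

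**Figure D4:**
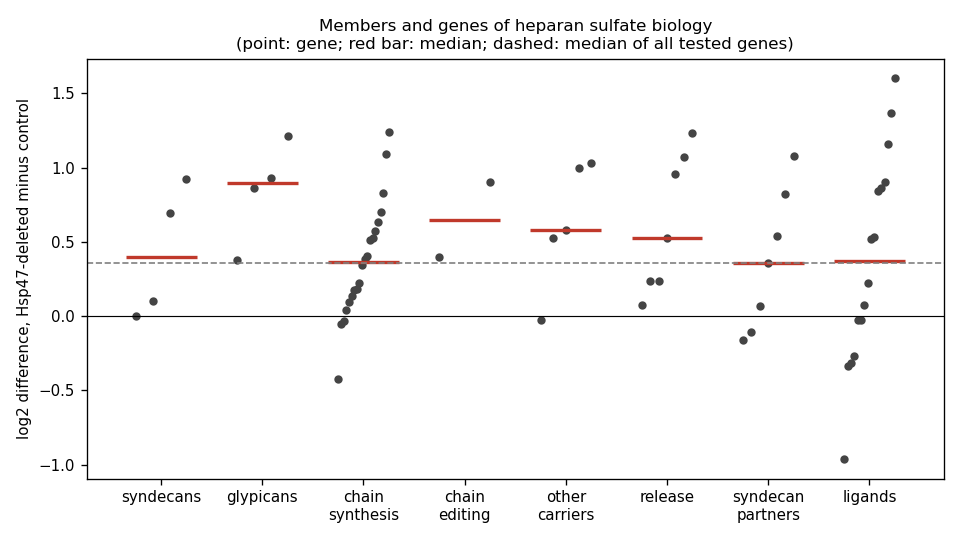
Log2 difference of Hsp47-deleted minus control (y axis) for each tested gene of the syndecans, glypicans and 6 lists of heparan sulfate biology (x axis), with the median of each list as a bar and that of all tested genes (0.35) as a dashed line. The glypican median (0.90) is the highest of the 8, and the medians of chain synthesis (0.37) and ligands (0.37) sit on the dashed line.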

How the data were processed

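RNA was amplified before library construction, per the labels. The submitters' processing notes name kallisto and mm10, without versions, and the paper names AltAnalyze. The values the authors deposited, log2(value + 1), fill 1 table with 28987 genes, which also holds their group means and their own folds and p-values, all unused here. Depth is not given in the sources used here. The 15109 genes with a mean linear value of at least 1 over the 6 libraries entered limma 3.58.1 under R 4.3.3 (lmFit, eBayes with a mean-variance trend, no covariate), two-sided, with Benjamini-Hochberg adjustment across all genes tested. With 3 libraries against 3, an exact permutation test cannot go below p = 0.10 and was not used. The script was tested on simulated data. Members and lists were chosen with earlier results of these data known. The text names every member, the 3 genes of each list with the smallest p, and the 3 profiles most like that of the member with the smallest p. Any other gene was named with its values in view. Positions came from GENCODE M21 (GRCm38, the assembly of mm10), promoter windows from RefSeq, and copies were sought with minimap2 2.31-r1302. Alternatives were run as a covariate, the replicate number as a block, other filters (none, or a mean of 5), pseudocounts of 0.1 and 5, quantile normalization, centring on library medians, limma without the trend or with robust estimation (statmod 1.5.0), the second run alone, and leaving out each library.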

Additional observations from a re-analysis of the deposited data

How the results depend on the processing

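Genes called at a BH-adjusted p under 0.05 numbered 37 and fell to 0 with the replicate number as a block, 16 with a pseudocount of 0.1, 17 with quantile normalization and 18 with centring on the library medians, and ranged from 8 to 2768 when 1 library was left out, the highest without control replicate 2. With run as a covariate 50 genes were called, 18 higher and 32 lower. Members called were 0 in every setting except without control replicate 2, where they were 4 (range 0 to 4). Members at an unadjusted p under 0.05, 3 in the pooled fit, were 0 with quantile normalization and 0 with centring, and ranged from 0, without Hsp47-deleted replicate 2, to 5, without control replicate 2, where 7.10% and 35.1% of all tested genes passed that p. *Sdc1*, *Sdc4*, *Gpc3* and *Gpc4* stayed higher in every setting run, *Sdc4* from 0.51 to 1.14 and *Gpc3* from 0.78 to 1.49. The range was 0.068 to 1.01 for *Sdc1* and 0.37 to 1.21 for *Gpc4*, both lowest with run as a covariate or in the second run alone. *Sdc2* turned to -0.043 with the replicate block, -0.46 with quantile normalization and -0.41 with centring, and ranged from -0.056 to 0.053 over left-out libraries. *Sdc3* turned to -0.43 with run as a covariate or in the second run alone, -0.28 with the replicate block, -0.21 with quantile normalization and -0.31 with centring, and ranged from -0.15 to 0.50 over left-out libraries. *Gpc1* was -0.095 with run as a covariate or in the second run alone, and *Gpc6* -0.040 with centring. The cause was not tested. Replicate numbers 2 and 3 occur in both groups, and deviations of those libraries from their group means correlated at 0.16 and 0.23, but other pairings reached 0.38, and with 2 pairs the numbers are not taken to pair the libraries. Under the block 10.2% of genes had an unadjusted p under 0.05. Depth is unknown and sets no limit here that can be computed.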
